A study of Mus musculus with 6 samples.

Results

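Type I interferon response genes were followed in mouse bone marrow-derived macrophages that had received lipopolysaccharide (LPS), the bacterial outer-membrane ligand of TLR4, for 24 h. The group held 38 of the 16266 genes in the deposited tables: the 2 chains of the interferon receptor, the signal carrier Stat2, and 35 antiviral genes that interferon switches on. They were chosen by gene name and not by a threshold on their values, but with earlier results of these data known. Shares of called genes set beside those of all tested genes are therefore descriptions and not independent evidence. All 38 were found, and all 38 passed the filter on low counts that left 12219 genes for testing. The study sequenced total RNA from 3 wild-type libraries and 3 libraries labelled KO, all from macrophages kept in DMEM with serum and all given LPS for 24 h; no library from untreated cells was analysed here, so every value is a level in stimulated cells. The series title speaks of a deletion of Capns1, the regulatory small subunit shared by calpain-1 and calpain-2, in myeloid cells; the promoter or Cre line that drives it is not given in the sources used here. The genotype field reads CAPNS1-KO, CAPNS2-KO and CAPNS3-KO in KO libraries 1, 2 and 3, while the design text names capns1 alone. Capns1 itself stood at 492, 478 and 521 CPM (counts scaled to the size of the library) in the wild-type libraries and at 9.51, 9.94 and 9.13 CPM in the KO libraries, low in all 3 (log2 fold change -5.73, adjusted p = 1.77e-10; two-sided exact permutation p = 0.1, the smallest that 3 against 3 libraries can give). The labels do not say whether the replicates came from separate animals or cultures, so p-values measure the spread between these libraries, which may be technical.

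LPS makes macrophages secrete interferon-beta, which acts back on the same cells. The cytokine binds the receptor chains IFNAR1 and IFNAR2, the attached kinases TYK2 and JAK1 phosphorylate STAT2, and STAT2 joins IRF9 in the ISGF3 complex, which binds the interferon-stimulated response element in the promoters of target genes. The products of those genes sense, bind, cut or trap viral RNA and virus particles, and some, such as USP18, damp the receptor.

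The shared regulatory letters can be seen in the members' own promoters. In windows from 250 bases before to 50 bases after each RefSeq start site (GRCm38.p6), the core of the response element, GAAA and GAAA separated by any 2 bases, on either strand, was present in 16 of the 29 members that have an entry (55.2%), in 3.99% of all 27025 promoters and in 3.95% of those of tested genes. The sequences of 7 members follow, chosen to show the element in single, paired and overlapping copies and without it, from 200 to 20 bases before the start site (Ifit1 from 140), each written 5′ to 3′ along its gene with matches in capitals, also where the match lies on the other strand and so reads TTTC, 2 bases, TTTC. Isg15 and Bst2 carry the element in adjacent, overlapping copies, 3 in Isg15 and 2 in Bst2. Ifit1, Ifit3 and Ifit3b carry 2 copies each, and the windows of Ifit3 and Ifit3b share an unbroken run of 169 bases. Rsad2, with 1 match, and Cmpk2, with none, are neighbours on opposite strands, transcribed away from each other.
Isg15 (chr4:156200838-156201018, minus strand): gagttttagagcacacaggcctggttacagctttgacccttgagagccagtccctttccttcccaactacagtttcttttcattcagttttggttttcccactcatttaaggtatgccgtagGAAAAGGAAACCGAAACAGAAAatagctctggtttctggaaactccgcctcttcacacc
Bst2 (chr8:71537492-71537672, minus strand): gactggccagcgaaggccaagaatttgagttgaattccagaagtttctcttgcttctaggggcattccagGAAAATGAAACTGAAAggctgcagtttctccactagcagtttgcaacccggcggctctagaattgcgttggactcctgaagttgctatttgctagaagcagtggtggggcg
Ifit1 (chr19:34640749-34640869, plus strand): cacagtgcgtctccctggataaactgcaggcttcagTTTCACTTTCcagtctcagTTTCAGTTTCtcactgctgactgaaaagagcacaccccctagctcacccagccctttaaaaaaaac
Ifit3 (chr19:34583329-34583509, plus strand): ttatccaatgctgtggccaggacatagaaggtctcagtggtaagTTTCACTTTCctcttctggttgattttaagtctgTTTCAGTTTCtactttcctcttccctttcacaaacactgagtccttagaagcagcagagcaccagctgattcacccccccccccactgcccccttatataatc
Ifit3b (chr19:34607757-34607937, plus strand): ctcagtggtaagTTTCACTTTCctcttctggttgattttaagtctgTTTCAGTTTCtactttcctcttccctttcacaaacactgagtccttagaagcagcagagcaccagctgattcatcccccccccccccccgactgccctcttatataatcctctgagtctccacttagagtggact
Rsad2 (chr12:26456472-26456652, minus strand): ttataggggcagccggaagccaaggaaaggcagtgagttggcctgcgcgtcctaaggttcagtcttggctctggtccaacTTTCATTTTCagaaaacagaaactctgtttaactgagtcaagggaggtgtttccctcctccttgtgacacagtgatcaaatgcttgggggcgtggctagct
Cmpk2 (chr12:26469015-26469195, plus strand): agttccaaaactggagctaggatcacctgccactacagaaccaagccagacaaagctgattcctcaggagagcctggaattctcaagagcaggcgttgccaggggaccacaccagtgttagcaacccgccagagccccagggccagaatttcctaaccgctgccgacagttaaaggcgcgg

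The STAT palindrome, TTC and GAA separated by any 3 bases, was present in 9 of the same 29 member promoters (31.0%) and in 9.55% of all promoters. A match is a description of the letters and not a measured binding site, and no match says only that these letters are not in the window.

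The libraries had 32631163 to 40913819 counts each. Macrophage markers were high in both groups, with summed levels of 35421 to 42761 CPM in wild type and 33752 to 38854 CPM in KO. Most of each sum was Lyz2, with 23796 to 31886 CPM in wild type and 23444 to 27659 CPM in KO. Of the 9 macrophage markers 1, Cd14, fell (11.1%, beside 6.21% of all tested genes called lower). Of 9 tested markers of fibroblasts and marrow stroma 5 rose (55.6%, beside 8.44% of all tested genes called higher). Their list summed to 161 to 195 CPM in wild type and 342 to 416 CPM in KO. Neutrophil markers summed to 1109 to 1490 CPM and 1043 to 1402 CPM, with 2 that rose (20%) and 3 that fell (30%) of 10. Markers of conventional dendritic cells summed to 15.6 to 20.4 CPM and 28.1 to 35.8 CPM, most of it Itgax, while Flt3, Xcr1 and Clec9a stayed below 1 CPM. Of the 7 markers of plasmacytoid dendritic cells, known producers of interferon, 6 had means below 1 CPM. Markers of T and NK cells, B cells, mast cells and erythroid cells summed to at most 11.4 CPM per list in any library, with 1 of these genes called higher (Ebf1) and 1 lower (Nkg7). The part of these other cells in the differences of the response genes was not tested. Wild-type replicate 3 and KO replicate 2 stood apart from the other libraries at opposite ends of the second principal component of all genes.

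The response genes were abundant RNAs in these macrophages. On the FPKM scale (counts scaled to gene length and library size, so that levels of different genes can be compared), the members' mean levels over the 6 libraries lay between the 54.5th and the 99.9th percentile of tested genes, with a median percentile of 87.4. Ifitm3, a membrane protein that blocks the fusion of viruses with endosomes, led with 2926 ± 126 FPKM in wild-type cells (SD, n = 3). It was followed by Bst2 (tetherin, which holds budding virus particles on the cell surface) with 1317 ± 173 FPKM, by Ifi27l2a with 788 ± 75.6 FPKM and by the ubiquitin-like modifier Isg15 with 319 ± 66.1 FPKM. At the low end stood Rsad2 with 15.1 ± 1.04 FPKM, Isg20, an RNA exonuclease, with 12.9, 10.3 and 8.97 FPKM in the 3 libraries, and Herc6 with 7.11 ± 1.35 FPKM. Along this order, 8 of the 37 neighbouring pairs had wild-type libraries that did not overlap, among them each step from Ifitm3 through Bst2, Ifi27l2a and Isg15 to Oas1a; most other neighbours could not be put in order beyond their spread. The place of Oas1a is uncertain because 68.2% of the 32-base words in its transcripts also occur in another gene, chiefly Oas1g.

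In KO macrophages most of the response genes had a negative fold change, but few of the differences passed the test. Ifnar2, Ifit2, Ifi44, Rsad2, Cmpk2, Oas2 and Dtx3l fell, Parp14 rose, and the other 30 members were not called (edgeR's quasi-likelihood test, adjusted p under 0.05 over all 12219 tested genes). The 7 members that fell make 18.4% of the group, beside 6.21% of all tested genes called lower, and the 1 that rose makes 2.63%, beside 8.44% called higher. On the log2 scale 33 of the 38 members had a fold change (KO minus wild type) below 0, that is 86.8%, beside 51.7% of all tested genes. Their median was -0.24, with a range from -1.02 to 0.46, and the median of all tested genes was -0.011. All 3 KO libraries were below all 3 wild-type libraries in 14 members, beside 15.5% of tested genes, and above them in 2 members, beside 18.2% (33.6% in either direction); the groups overlapped in the remaining 22. In bulk RNA, fewer cells that express a gene and less of its RNA per cell cannot be told apart.

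**Figure D1:**
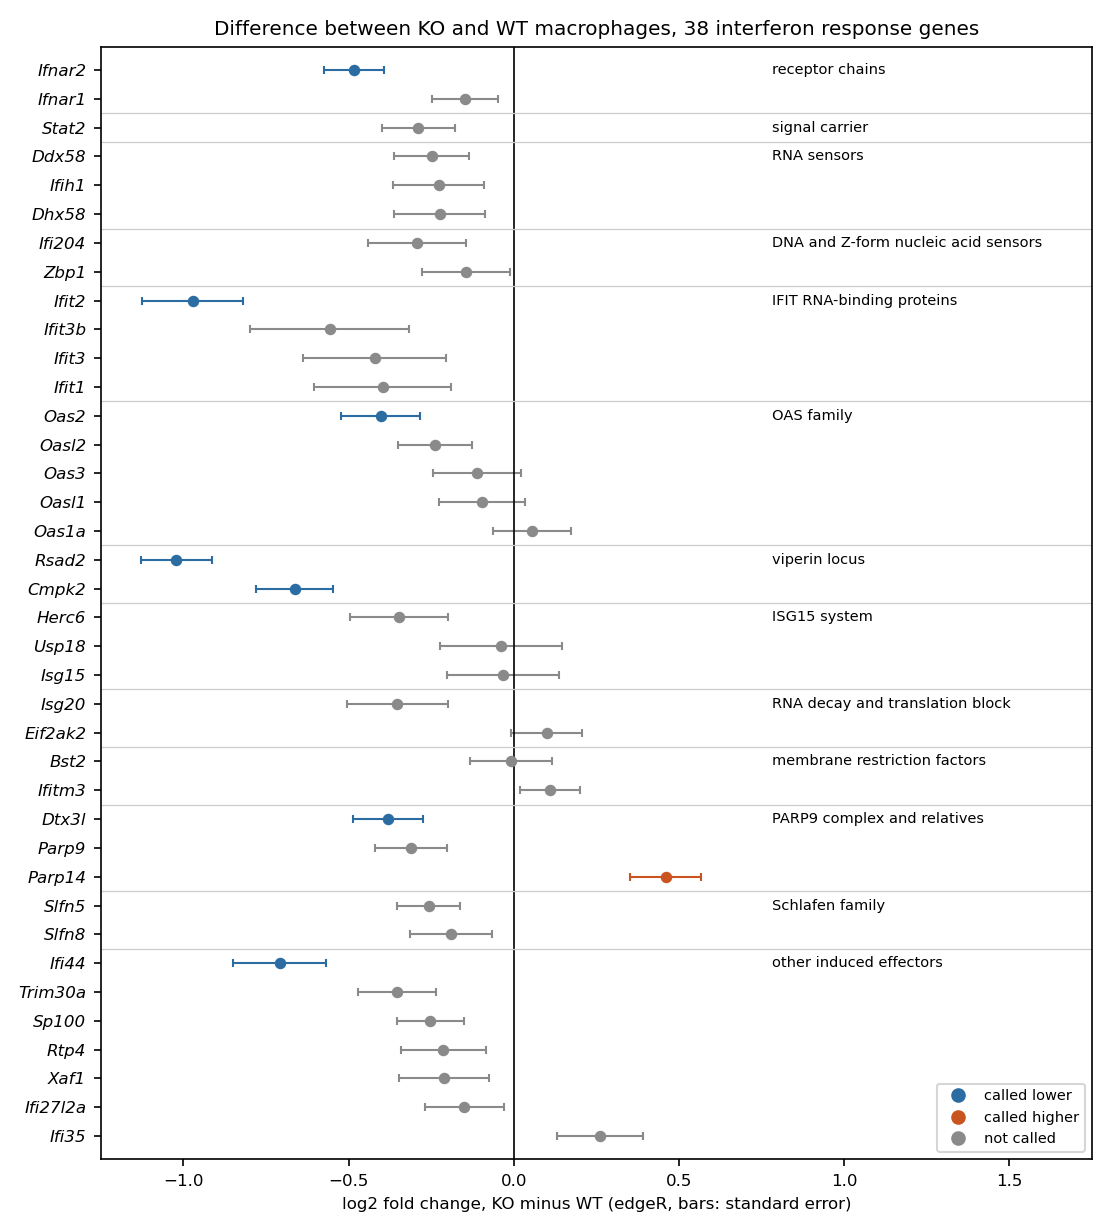
Log2 fold change (KO minus wild type, edgeR) of each of the 38 members, grouped by role; points are the estimates, bars are 1 standard error, and members called lower are blue, called higher orange and not called grey. Rsad2 stands lowest at -1.02 and Parp14 highest at 0.46, and most members lie between them on the negative side.

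The 2 receptor chains lie close together on chromosome 16, and 1 of them fell. Ifnar2 (chr16:91372783-91405589), the high-affinity chain, had 305, 312 and 314 CPM in the wild-type libraries and 232, 225 and 219 CPM in the KO libraries. Every KO library was below every wild-type library, and the spread within each group was small beside the gap. The log2 fold change was -0.48 ± 0.090 (standard error), 1.40-fold lower in KO, with adjusted p = 0.00419. Ifnar1 (chr16:91485032-91510523), which carries TYK2, had 228, 203 and 198 CPM in wild type and 197, 197 and 182 CPM in KO. The groups did not overlap, but they came within 1 CPM of each other, and the fold change of -0.15 ± 0.10 was not called (adjusted p = 0.375). Stat2, a subunit of ISGF3, had 298, 230 and 269 CPM in wild type and 222, 213 and 228 CPM in KO. Its KO libraries were all below the wild-type ones, with a fold change of -0.29 ± 0.11 and adjusted p = 0.107. The adjusted p was 0.0474 without wild-type replicate 2 and 0.380 without wild-type replicate 1.

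The nucleic acid sensors gave no call. RIG-I (Ddx58, log2 fold change -0.25), MDA5 (Ifih1, -0.23) and LGP2 (Dhx58, -0.22) recognise viral RNA in the cytosol, and their adjusted p-values lay between 0.178 and 0.325. KO libraries were all below wild-type libraries only for Ddx58 among these 3. Ifi204, a DNA sensor, had -0.29 (adjusted p = 0.223), and Zbp1, which binds Z-form nucleic acid, had -0.14 (adjusted p = 0.529). Reads of Ifi204 are uncertain, since 33.0% of its 32-base words are shared, chiefly with Ifi211.

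The IFIT proteins, which bind viral RNA ends and block their translation, are encoded side by side on chromosome 19, and 1 of the 4 fell. Ifit2 (chr19:34550550-34576534) had 208, 161 and 149 CPM in wild type and 73.2, 99.6 and 94.7 CPM in KO. The lowest wild-type library was well above the highest KO library, and the log2 fold change was -0.97 ± 0.15, 1.96-fold lower, with adjusted p = 0.00150. Ifit1, which binds capped RNA that lacks 2′-O methylation, had 96.8, 79.0 and 62.0 CPM in wild type and 47.7, 81.3 and 53.5 CPM in KO. Its groups overlapped, because KO replicate 2 lay above 2 of the wild-type libraries and the other 2 KO libraries lay below all of them. The fold change was -0.40 ± 0.21 with adjusted p = 0.241. Without KO replicate 2 it was -0.68 with adjusted p = 0.0139, and without wild-type replicate 1 it was -0.23 with adjusted p = 0.596. Ifit3 had 152, 129 and 92.6 CPM in wild type and 70.4, 125 and 86.1 CPM in KO, and KO replicate 2 lay above the lowest wild-type library (-0.42 ± 0.22, adjusted p = 0.231). Its near copy Ifit3b had -0.56 ± 0.24 (adjusted p = 0.156). Without KO replicate 2 both passed the threshold (adjusted p = 0.0200 for Ifit3 and 0.0124 for Ifit3b), and without wild-type replicate 3 both lay just under it (0.0497 and 0.0492). With another library left out, the adjusted p reached 0.578 for Ifit3 and 0.480 for Ifit3b. Of the 32-base words of Ifit3, 61.1% occur in Ifit3b, and of those of Ifit3b, 53.5% occur in Ifit3, so their separate counts are uncertain; summed, they gave -0.44 with adjusted p = 0.214.

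The pair at the viperin locus on chromosome 12 held the largest change of the group. Rsad2 (chr12:26442743-26456452, minus strand) encodes viperin, a radical SAM enzyme that makes a chain-terminating nucleotide, and Cmpk2 (chr12:26469117-26479837, plus strand) encodes a mitochondrial kinase that supplies a precursor nucleotide. Rsad2 had 61.2, 57.2 and 53.3 CPM in wild type and 26.7, 30.0 and 29.1 CPM in KO. The 3 KO libraries lay close together at about 2.03-fold below wild type, with a log2 fold change of -1.02 ± 0.11 and adjusted p = 9.72e-05. Cmpk2 had 63.0, 69.0 and 63.8 CPM in wild type and 39.2, 37.1 and 49.4 CPM in KO. Its groups did not overlap either, KO replicate 3 being nearest to wild type, and the fold change was -0.66 ± 0.12, 1.58-fold lower, with adjusted p = 0.00312.

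Those OAS proteins that are active enzymes make 2′-5′-linked oligoadenylate, which activates RNase L. Of the 5 members in the OAS and OAS-like family, 1 fell. Oas2 (chr5:120730333-120749886) had 111, 89.2 and 98.1 CPM in wild type and 71.4, 84.5 and 72.6 CPM in KO. All KO libraries were below all wild-type libraries, with the wild-type minimum only a few CPM above the KO maximum (-0.40 ± 0.12, adjusted p = 0.0447). This call was narrow: it did not hold without wild-type replicate 1 (adjusted p = 0.190), wild-type replicate 3 (0.0627), KO replicate 1 (0.188) or KO replicate 3 (0.170), nor with upper quartile scaling, a CPM minimum or log2 FPKM. Oas3 (-0.11), Oasl1 (-0.10), Oasl2 (-0.24) and Oas1a (0.056) overlapped between the groups, with adjusted p-values from 0.188 to 0.812.

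The ISG15 system showed groups that overlapped throughout. Isg15, a ubiquitin-like protein attached to newly made proteins, had 294, 234 and 194 CPM in wild type and 198, 290 and 227 CPM in KO. The highest KO library nearly reached the highest wild-type library, and the fold change was -0.033 ± 0.17 with adjusted p = 0.928. Usp18, the protease that removes ISG15 and also blocks signalling at IFNAR2, had 174, 134 and 115 CPM in wild type and 118, 176 and 122 CPM in KO, and its highest library of all was a KO library (-0.039 ± 0.18, adjusted p = 0.922). Herc6, the mouse ligase for ISG15, had -0.35 ± 0.15 (adjusted p = 0.149). Isg20 had -0.35 ± 0.15 (adjusted p = 0.158). Its adjusted p was 0.0397 without KO replicate 2 and reached 0.501 with another library left out. Eif2ak2, the kinase PKR that halts translation on sensing double-stranded RNA, had 0.10 ± 0.11 (adjusted p = 0.602).

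The 2 membrane restriction factors, the most abundant members, were not called. Bst2 had 1217, 1032 and 943 CPM in wild type and 962, 1205 and 1052 CPM in KO. Its libraries were interleaved, and with a fold change of -0.0075 ± 0.12 (adjusted p = 0.980) it lay nearest to 0 of all 38 members. Ifitm3 had 1990, 1845 and 1852 CPM in wild type and 2003, 2157 and 2070 CPM in KO; the KO libraries were all above the wild-type ones, by less than the test could call (0.11 ± 0.091, adjusted p = 0.480). Its counts are uncertain, since 19.8% of its 32-base words also occur in other genes, chiefly Gm7676.

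Of 3 neighbouring genes on chromosome 16, 1 rose, 1 fell and 1 was not called. Parp14 (chr16:35831892-35871518, minus strand), an ADP-ribosyltransferase, had 213, 167 and 194 CPM in wild type and 274, 260 and 270 CPM in KO. Every KO library was above every wild-type library, and Parp14 was the 1 member that rose (0.46 ± 0.11, 1.38-fold, adjusted p = 0.0150). Dtx3l (chr16:35926515-35939027, minus strand), a ubiquitin ligase that works as a heterodimer with PARP9, had 146, 121 and 144 CPM in wild type and 112, 102 and 107 CPM in KO. It fell by 0.38 on the log2 scale (standard error 0.11, adjusted p = 0.0334), with the groups apart. Of the leave-one-out fits, the call of Dtx3l held only without wild-type replicate 2, and it was also lost on the log2(FPKM + 1) scale; the adjusted p was 0.148 and 0.0837 without wild-type replicates 1 and 3, and 0.0929, 0.0549 and 0.113 without KO replicates 1, 2 and 3. Parp9 (chr16:35938470-35972621, plus strand) had 110, 98.9 and 90.3 CPM in wild type and 82.1, 85.3 and 77.3 CPM in KO, lower in every KO library but not called (-0.31 ± 0.11, adjusted p = 0.0771). Exons of Parp9 and Dtx3l overlap by 458 bases on opposite strands, 9.40% of Parp9 and 8% of Dtx3l, and the strand setting used for counting is not given in the sources used here, so some of their reads cannot be told apart.

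**Figure D2:**
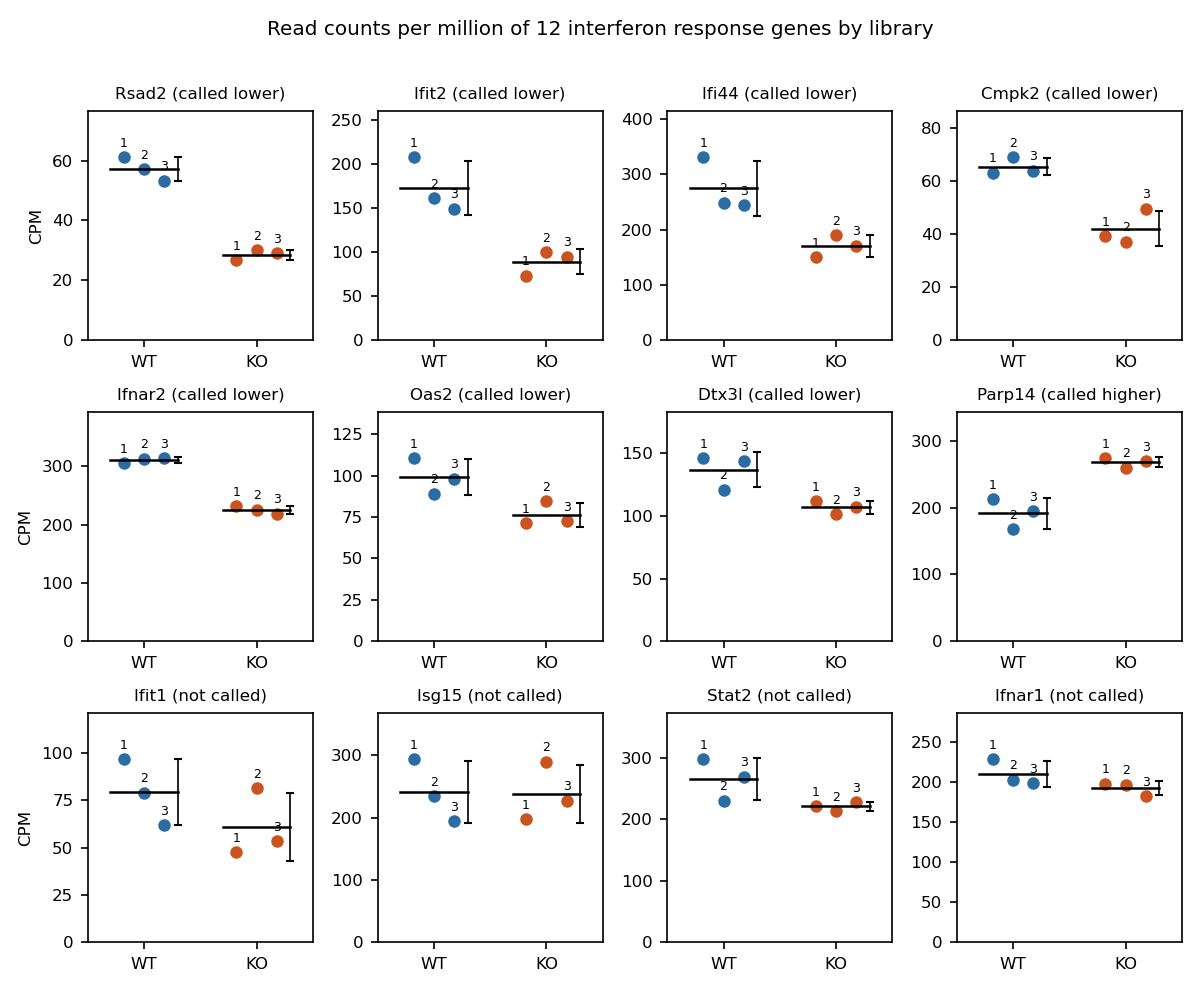
CPM in each library (linear axes from 0) of 12 members, wild type in blue and KO in orange, with replicate numbers, a line at the group mean and a bar of 1 SD (n = 3). The groups stand apart for Rsad2, Ifit2, Ifi44, Cmpk2 and Ifnar2 and overlap for Ifit1 and Isg15, where KO replicate 2 is the highest KO library.

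Among the remaining effectors, Ifi44 fell. Ifi44 (chr3:151730922-151749910), an interferon-induced cytoplasmic protein, had 331, 248 and 244 CPM in wild type and 150, 190 and 171 CPM in KO. The 3 KO libraries were all below the lowest wild-type library (-0.71 ± 0.14, 1.63-fold lower, adjusted p = 0.00598). Trim30a, an E3-type TRIM protein, had 243, 203 and 192 CPM in wild type and 156, 184 and 167 CPM in KO, also without overlap, and missed the threshold (-0.35 ± 0.12, adjusted p = 0.0679). It passed without wild-type replicate 3 (0.0417), without KO replicate 2 (0.0316) and with the counts of Trim30a, Trim30b, Trim30c and Trim30d summed (0.0450). With another library left out, its adjusted p reached 0.284. Sp100, a nuclear body protein (-0.25, adjusted p = 0.127), and Slfn5, a Schlafen protein (-0.26, adjusted p = 0.0999), had all KO libraries below all wild-type libraries without a call. Slfn8 (-0.19), Xaf1 (-0.21), Rtp4 (-0.21), Ifi27l2a (-0.15) and Ifi35 (0.26) overlapped, with adjusted p-values between 0.221 and 0.458. Of the 32-base words of Slfn8, 25.9% also occur in other genes, 18.4% in Slfn9.

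Of the 7 members that fell, 6 lay below the 90th percentile of FPKM. Of the 15 members above the 90th percentile of FPKM, 1 was called lower and the median log2 fold change was -0.11, while 7.28% of all tested genes at that level were called lower and 9.57% higher. Of the other 23 members, 6 were called lower and 1 higher, with a median of -0.35, while 6.09% of all other tested genes were called lower and 8.31% higher. The response element was present in 1 of the 6 members called lower that have a promoter entry (Rsad2), and in 15 of the 23 not called. Parp14 and Oas2 have no entry. These are descriptions of the members, without a test.

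Apart from the genotype, the members moved together from library to library. To see this, each member's log2 level (CPM after TMM scaling, pseudocount 0.5) was taken minus the mean of its own group, which leaves the comparison of KO with wild type out. Wild-type replicate 1 was above its group's mean in 36 of the 38 members (median 0.18), and KO replicate 2 in 32 (median 0.17). The other wild-type libraries were above it in 8 members each, with medians of -0.068 and -0.12, and KO replicates 1 and 3 in 6 and 11, with medians of -0.12 and -0.035. Over all tested genes these medians stayed between -0.0065 and 0.012. Within each group the gap between the highest and the lowest of the members' medians was wider than the members' median difference between genotypes. Over the 6 libraries the 703 pairs of members had a median Pearson r of 0.74, with 87.1% above 0, beside 0.0019 and 50.1% for all pairs of tested genes; these correlations rest on 6 shared libraries with group means removed and carry no test.

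**Figure D3:**
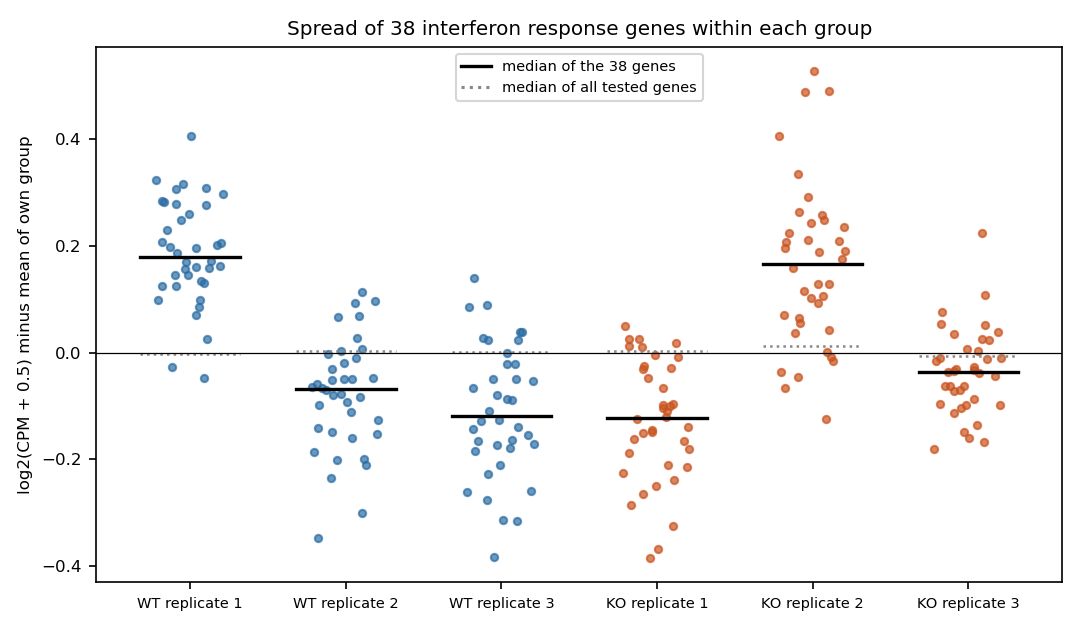
Deviation of each of the 38 members from the mean of its own group, on the log2 scale, in each library; points are genes, the solid line is their median and the dotted line the median of all tested genes. Wild-type replicate 1 and KO replicate 2 lie above 0 for 36 and 32 members, and KO replicate 1 for 6.

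Members that fell stood on both sides of this swing. Zbp1, not called between genotypes, had the highest median correlation with the other members (r = 0.93), followed by Bst2 and Oas1a, and Isg15 and Usp18 correlated at 0.98 with each other. Of the members that fell in KO, Rsad2 (median r = 0.89), Ifi44 (0.87), Ifit2 (0.83) and Oas2 (0.77) followed the common swing, and Cmpk2 (-0.34), Ifnar2 (-0.080) and Dtx3l (0.083) had the lowest values of all members. Parp14, which rose, had 0.38, and Ifih1 (0.20) and Oasl2 (0.21), which were not called, were also low. Rsad2 and Cmpk2, though neighbours that both fell, had r = -0.094. The KO libraries also differed in how far they stood from wild type. KO replicate 1 was below all 3 wild-type libraries in 27 of the 38 members and KO replicate 3 in 24, beside 28.1% and 28.9% of tested genes, while KO replicate 2 was below them in 15, beside 36.3%.

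Markers of neutrophils and their precursors varied the other way in 5 of the 6 libraries. None of the 10 lay above its group's mean in wild-type replicate 1 (median -0.16) or in KO replicate 2 (median -0.33), while 9 of 10 did in wild-type replicate 2 (median 0.30) and 8 of 10 in KO replicates 1 and 3. In wild-type replicate 3 they were low (2 of 10 above, median -0.11), as the members were. Their part in the swing of the response genes was not tested. Another fit left out wild-type replicate 3 and KO replicate 2, which stood apart on the second principal component, a choice made after seeing the data. It called 24 of the 38 members lower and Parp14 higher, the 8 calls of the full data among them. In all, 1505 genes were called lower, 12.3% of those tested, and 1681 higher. The remaining libraries then differ by group along that same component as well. The members' median deviation was lowest among wild-type libraries in replicate 3 (-0.12) and highest among KO libraries in replicate 2 (0.17). Leaving both out therefore favours a wider difference of the members, so the count of 24 is no separate evidence of a fall. Calls over all genes rose as well, from 759 lower and 1031 higher in the full data. The cause of these rises was not tested.

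Beyond the members, the pathway was read from lists of its other parts, also chosen with earlier results of these data known. Of the ligands, Ifnb1 had 0, 10 and 4 counts in the wild-type libraries and 4, 1 and 1 counts in the KO libraries, too few to test, and no difference was detectable at this depth, where 3 counts correspond to 0.0733 to 0.0919 CPM. Other carriers of the receptor signal were not called: Irf9 had -0.19 ± 0.12 (adjusted p = 0.322), Jak1 -0.18 ± 0.10 (0.307) and Tyk2 -0.18 ± 0.12 (0.350). Of the 6 interferon regulatory factors listed, Irf1 (-0.44 ± 0.10, adjusted p = 0.0142) and Irf8 (-0.33 ± 0.090, adjusted p = 0.0324) fell, 33.3% beside 6.21% of all tested genes. Irf7, which amplifies interferon production, had 2752, 2549 and 2508 CPM in wild type and 2265, 2326 and 2308 CPM in KO, lower in all KO libraries and not called (-0.20 ± 0.088, adjusted p = 0.163). Irf3, which starts interferon-beta transcription, had 0.078 ± 0.11 (adjusted p = 0.702).

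Of 12 inducers of interferon transcription, 3 fell: the kinase Ikbke (-0.44, adjusted p = 0.0199), the DNA-signalling adaptor Sting1 (-0.39, 0.0290) and the TLR4 adaptor Ticam2 (-0.34, 0.0440). These 3 make 25% of the list, beside 6.21% of all tested genes called lower, and the list's median log2 fold change was -0.24. Of 7 negative regulators, Pias1, an inhibitor of cytokine signalling, fell (-0.41, adjusted p = 0.0142), which makes 14.3% of that list, and the median was 0.026. These calls were narrow. Ticam2 was lost under 13 of the 19 alternatives, among them library totals alone, upper quartile scaling, no filter, a CPM minimum and each fit of log2 FPKM. Irf1, Ikbke, Sting1 and Pias1 missed the threshold without wild-type replicate 1 or 2 or without KO replicate 1 or 3, Irf8 also without wild-type replicate 3, and Ticam2 without any 1 of the 6; the highest adjusted p was 0.0800 for Irf1, 0.105 for Ikbke, 0.129 for Sting1, 0.0712 for Pias1, 0.136 for Irf8 and 0.168 for Ticam2.

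A further 84 interferon-induced genes were listed, of which 74 were tested, with a median log2 fold change of -0.18. In this list 11 fell (14.9%) and 3 rose (4.05%), beside 6.21% of all tested genes called lower and 8.44% higher. Among those that fell were Gbp4, a guanylate-binding protein (-1.37, adjusted p = 1.66e-04), Plac8 (-1.32, 3.85e-05), the chemokine Cxcl10 (-0.93, 0.0107), Ifi44l, the relative of Ifi44 (-0.84, 0.00134), and Ifi47 (-0.81, 0.00879). The others were Sp140 (-0.70), Ifitm6 (-0.66), Slfn1 (-0.50), Trim30c (-0.48), Trim30d (-0.44) and Sp110 (-0.38), with adjusted p-values up to 0.0454. The counts of Sp140 and Sp110 are uncertain, since 46.3% and 47.5% of their 32-base words occur in other genes. Apobec3, a cytidine deaminase that attacks retroviral DNA, rose the most of the list, from 53.2, 55.2 and 52.9 CPM in wild type to 142, 139 and 140 CPM in KO. Its libraries were far apart (1.36 ± 0.093, 2.57-fold, adjusted p = 4.52e-06). Ifi27 (0.57, 0.0166) and Epsti1 (0.51, 0.0171) also rose. These genes swung with the members: 62 of the 74 were above their group's mean in wild-type replicate 1 and 56 in KO replicate 2. Some of the calls turn on 1 library: Cxcl10 was at adjusted p = 0.0553 without KO replicate 3, and also missed the threshold without wild-type replicate 2 or KO replicate 1. Slfn1 was lost under 10 alternatives, also with library totals alone, upper quartile scaling, a CPM minimum and log2 FPKM, and Trim30d also with log2 FPKM. Calls were likewise lost with 1 library left out for Slfn1 (up to 0.196; wild-type replicates 1 and 2, KO replicates 1 and 3), Sp110 (up to 0.172; wild-type replicates 1 and 3, KO replicates 1 and 3), Trim30d (up to 0.168; wild-type replicate 1, KO replicates 1 and 3) and Trim30c (up to 0.0880; wild-type replicate 1, KO replicate 1). Ifi27 lost its call without wild-type replicate 1 (0.0778), Epsti1 without wild-type replicate 2 (0.0565), and Ifitm6 (0.0645) and Ifi47 (0.0555) without KO replicate 3.

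Of 18 tested genes that respond more to interferon-gamma, 8 fell (44.4%, beside 6.21% of all tested genes), and the list's median was -0.48. They were the guanylate-binding proteins Gbp2 (-0.63), Gbp3 (-0.56) and Gbp5 (-0.85), the GTPases Iigp1 (-0.67), Irgm1 (-0.49) and Tgtp2 (-1.02), the MHC class I activator Nlrc5 (-0.49) and the checkpoint ligand Cd274 (-0.46), with adjusted p-values up to 0.0447. Tgtp2 is uncertain, with 90.3% of its 32-base words found in other genes, chiefly Tgtp1. Iigp1 was lost under 10 alternatives, also with library totals alone, upper quartile scaling, a CPM minimum and log2 FPKM. Without wild-type replicate 2, KO replicate 1 or KO replicate 3, Gbp2, Gbp3, Irgm1 and Iigp1 missed the threshold (up to 0.0639, 0.0975, 0.114 and 0.184), the last 2 also without wild-type replicate 1, as did Nlrc5 without wild-type replicate 1 (0.0619) and Cd274 without KO replicate 3 (0.0518).

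**Figure D4:**
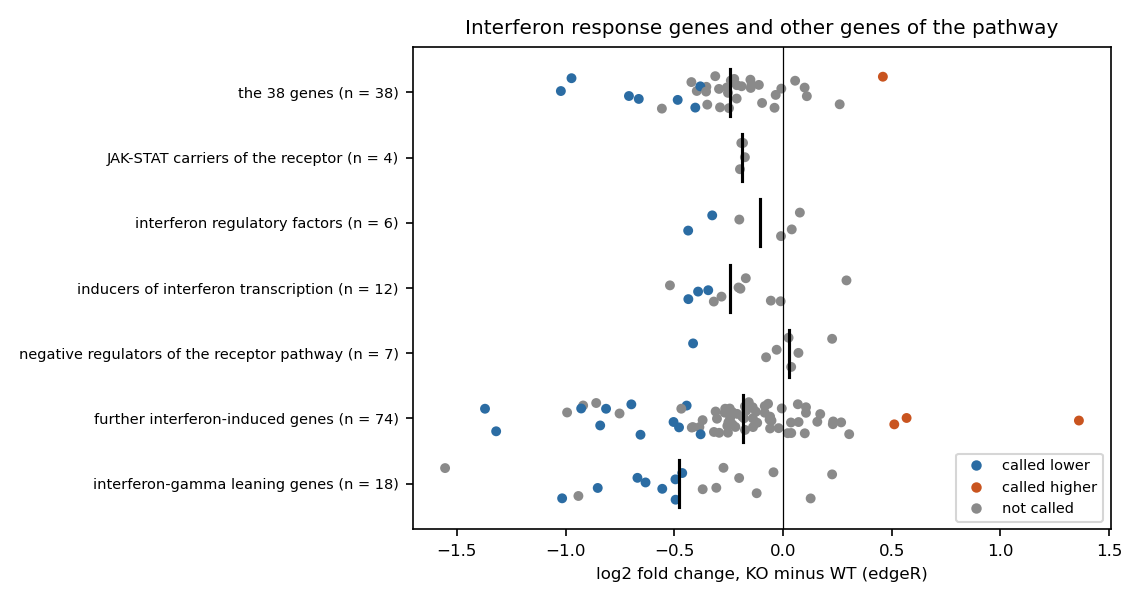
Log2 fold change (KO minus wild type) of every tested gene in each list of the interferon pathway, 1 point a gene, with genes called lower in blue and higher in orange and a line at each list's median. The members' median is -0.24 and that of the interferon-gamma leaning genes -0.48, and Apobec3 is the highest point at 1.36.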

How the data were processed

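Counts per gene were made by the authors with fastp, HISAT2 and HTSeq on mm10, per the submitters' processing notes, from strand-specific total RNA libraries, per the labels' protocols; the sources used here give neither versions nor the counting strand. The authors also deposited FPKM values, which equal count divided by length and total within 1% for 99.99% of values from 10 counts up. The members and gene lists were chosen with earlier results of these data known.

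Counts were filtered (filterByExpr), scaled by TMM and tested for KO against wild type by edgeR 4.0.16 (R 4.3.3), quasi-likelihood, group as the 1 term, with Benjamini-Hochberg adjustment over the 12219 tested genes; a gene was called at adjusted p under 0.05. CPM is the count over the library's total. Standard errors of log2 fold changes were derived from the test, as the absolute fold change over the square root of its F statistic. Alternatives used other scalings and filters, DESeq2 1.42.0, limma 3.58.1 on log2(FPKM + 1), a replicate block, summed copies and left-out libraries. Genes named in full were each called member, both receptor chains, Stat2, Ifit1, Isg15, Irf7, and the 3 largest and 3 smallest changes; of the other lists, the main carriers and factors and each called gene. Shared words are 32-base stretches of GENCODE transcripts also found in other genes. Of the pathway and marker lists, 26 entries were not analysed here.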

Additional observations from a re-analysis of the deposited data

How the results depend on the processing

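Of the 8 called members, Ifnar2, Ifit2, Rsad2, Cmpk2, Parp14 and Ifi44 kept their call and direction under all 19 alternatives; Oas2 lost it under 9 and Dtx3l under 7. Of the 30 members not called, 18 were called under at least 1 alternative. Only Stat2, Ifit1, Ifit3, Ifit3b, Isg20, Parp9 and Trim30a among them were called outside the fit without both wild-type replicate 3 and KO replicate 2. The members' median log2 fold change stayed between -0.36 and -0.16. Without both wild-type replicate 3 and KO replicate 2, an alternative chosen after seeing the data, 1681 genes were called higher and 1505 lower in all. Of the members 24 were called lower, and of the other pathway genes 6 were called higher and 37 lower. The libraries left out were the wild-type one with the lowest and the KO one with the highest median of the members. That choice favours a wider difference of the members, and the cause of the rise in their count was not tested. With 1 library left out at a time, 359 to 742 genes were called lower in all, 5 to 11 members and 6 to 22 other pathway genes. In the full data these counts were 759, 7 and 17, so those of the members and other pathway genes moved both ways. The cause of these shifts was not tested.

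Same-numbered libraries did not vary together in all 3 pairs (r = -0.098, 0.23 and 0.18 across genes). Wild-type replicate 1 varied more closely with KO replicate 2 (r = 0.16) than with its own number. The highest r of all pairings was 0.26, for wild-type replicate 3 with KO replicate 1. The labels do not say what a shared number means, and these correlations cannot settle whether same-numbered libraries share a batch. With the replicate number as a block, 1164 genes were called lower in all, and 10 members were called, Parp9 and Trim30a being added.

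Directions turned in 7 genes that were not called. Bst2 was at 0.012 with library totals alone, 0.016 with upper quartile scaling, 0.012 with a CPM of at least 1 in 3 samples and 0.014 on the log2 FPKM scale under each of 3 settings. Without both libraries Oas1a was at -0.10 and Irf3 at -0.022. With 1 library left out, Bst2 ranged from -0.12 to 0.099, Oas1a from -0.052 to 0.14, Oas3 from -0.23 to 0.036, Oasl1 from -0.22 to 0.012, Isg15 from -0.22 to 0.13 and Usp18 from -0.27 to 0.14.

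Members without a call are not shown to be alike in both groups. Depth limits the comparison of Ifnb1, with at most 10 counts in a library.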
